A study of Mus musculus with 12 samples.

Results

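The 9 genes described here mark the alveolar type 1 cell or build caveolae. They were followed in whole lung of C57BL/6NCr mice at 4 ages; the deposited count table holds 55487 genes in all. They are Hopx, Akap5, Ager, Rtkn2, Aqp5, Pdpn, Clic5, Cav1 and Cav2, taken as the rows of the count table that carry these symbols. The study sequenced poly-A selected lung RNA from mice aged 6 months (6M), 12 months (12M), 20 months (20M) or 30 months (30M) to find transcripts that differ with age, and 3 libraries represent each age. The labels name no treatment or genotype and do not give the sex. Nothing in them says that each library is a separate animal, so the spread behind every p-value is that between libraries and may in part be technical.

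Alveolar type 1 cells are the thin, flat cells that cover most of the gas exchange surface of the lung. They lie against capillary endothelium and, in the adult lung, can arise from alveolar type 2 cells, which make surfactant. Their plasma membrane, like that of endothelium, is rich in caveolae, flask-shaped pits built from caveolin proteins and held in shape by cavin proteins. Cav1 and Cav2 are therefore made by endothelial cells and fibroblasts as well as by type 1 cells, and Pdpn also by lymphatic endothelium. In bulk tissue, fewer cells of a type and less RNA per cell cannot be told apart.

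Library totals ran from 12152066 to 15058628 counts, and all 9 genes passed the filter on low counts, with at least 1696 counts in any library. No 2 libraries of an age were duplicates (chi-square per gene 6.66 to 49.9). In all, 3 libraries followed gene GC content steeply: relative to the 6M mean, the Spearman correlation of expression with GC over genes was 0.357 in 20M_221, 0.462 in 20M_222 and 0.323 in 30M_220. It was 0.226 in 12M_208 and between -0.085 and 0.050 in all others. Skeletal muscle RNA was present in 20M_222, where the muscle actin Acta1 was at 1039 CPM (TMM-scaled counts per 1000000) and elsewhere at most at 2.13 CPM.

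All 9 genes were abundant. Levels of different genes were compared as CPM per kilobase of exon, as mean ± SD over the 12 libraries. Ager stood highest at 1122 ± 202.03, rank 21 of 18407 tested genes on this scale, and Hopx followed at 723 ± 188, rank 34. Cav1 was at 353 ± 60.9. Then came Cav2 at 143 ± 35.2, Aqp5 at 136 ± 22.7, Clic5 at 116 ± 23.1 and Pdpn at 101 ± 19.8, each within 1 SD of its neighbour in this order. Akap5 at 66.5 ± 21.3 and Rtkn2 at 51.7 ± 10.6 were lowest. They differed by less than the SD of Akap5 but by more than that of Rtkn2.

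The start regions of 4 of these genes are shown: Ager has the highest level, Akap5 the largest difference between 6M and 30M, and Cav1 and Cav2 are neighbours. Each is the 250 bases before the RefSeq start (GRCm38.p6, the build named for the counts), read 5′ to 3′ on the gene's strand, which is the plus strand for all 4. RefSeq windows were found for 8 of the 9 genes, not for Rtkn2. Capitals mark matches, on either strand, to any of 4 short motifs, which do not overlap each other in these windows. The core bound by TEAD factors was searched as GGAATG and occurred in 12.6% of the 32851 windows in the RefSeq table. For the lung factor NKX2-1 the letters searched were CACTTG, found in 11.6% of windows. A TATA box was searched as TATAAA and occurred in 12.4%. The GC box, bound by SP1 and its relatives, was searched as GGGCGG and occurred in 32.7%.
Ager, chr17:34597600-34597849: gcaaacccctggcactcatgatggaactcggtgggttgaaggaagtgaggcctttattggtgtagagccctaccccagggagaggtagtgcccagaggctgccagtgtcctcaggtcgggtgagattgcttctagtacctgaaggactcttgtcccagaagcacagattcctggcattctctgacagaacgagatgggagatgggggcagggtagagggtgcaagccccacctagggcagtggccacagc
Akap5, chr12:76324641-76324890: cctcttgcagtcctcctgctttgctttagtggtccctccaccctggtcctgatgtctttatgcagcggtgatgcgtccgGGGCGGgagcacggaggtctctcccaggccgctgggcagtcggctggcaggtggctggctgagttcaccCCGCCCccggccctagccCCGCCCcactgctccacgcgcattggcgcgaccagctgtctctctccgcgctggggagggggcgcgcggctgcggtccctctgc
Cav1, chr6:17306085-17306334: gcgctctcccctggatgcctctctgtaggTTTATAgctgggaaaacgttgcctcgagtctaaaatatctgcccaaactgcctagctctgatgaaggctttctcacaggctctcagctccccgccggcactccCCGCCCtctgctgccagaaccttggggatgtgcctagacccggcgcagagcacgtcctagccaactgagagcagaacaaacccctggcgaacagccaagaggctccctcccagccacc
Cav2, chr6:17280935-17281184: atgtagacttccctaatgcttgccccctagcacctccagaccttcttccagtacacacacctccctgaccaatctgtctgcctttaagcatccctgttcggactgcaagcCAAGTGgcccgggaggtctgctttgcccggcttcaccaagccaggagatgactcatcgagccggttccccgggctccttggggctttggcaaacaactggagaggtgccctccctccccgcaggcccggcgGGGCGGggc
The Ager window held no match, the Akap5 window 3 GC boxes, the Cav1 window shown 1 TATA box match and 1 GC box, and the Cav2 window 1 NKX2-1 core and 1 GC box. The TATA box match of Cav1 reads TTTATA, so TATAAA lies on the strand opposite the gene. It lies toward the end of the window that is far from the start. In GC content the windows ran from 57.6% in Ager to 70.0% in Akap5, against a median of 52.4% over all windows. A second RefSeq start window of Cav1, chr6:17307390-17307639, held no match. These are letters in a window, and no binding was measured.

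No member passed the test in any comparison. With edgeR's quasi-likelihood test over all 18407 genes, 0 of 9 genes had an adjusted p under 0.05 at 30M against 6M, where 1.96% of all tested genes did and 0.0272% did and were lower. The 9 log2 fold changes all lay below 0, from -0.87 (Akap5) to -0.17 (Pdpn), with a median of -0.38 against 0.00 over all tested genes, of which 49.5% lay below 0. At an unadjusted p under 0.05 there were 5 (Akap5, Rtkn2, Hopx, Aqp5 and Clic5), all lower, against 3.57% of tested genes that were lower by that measure. In 6 of 9 (Akap5, Rtkn2, Hopx, Ager, Cav1 and Clic5) every 30M library lay below every 6M library, as in 8.66% of tested genes. DESeq2 and limma voom with quality weights each called 1 member in this comparison, Akap5, as lower. DESeq2 called 4.1% of the genes it tested, 0.447% as lower, and limma voom 3.23%, 0.168% as lower. All comparisons with 6M use the same 3 libraries at 6M.

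**Figure D1:**
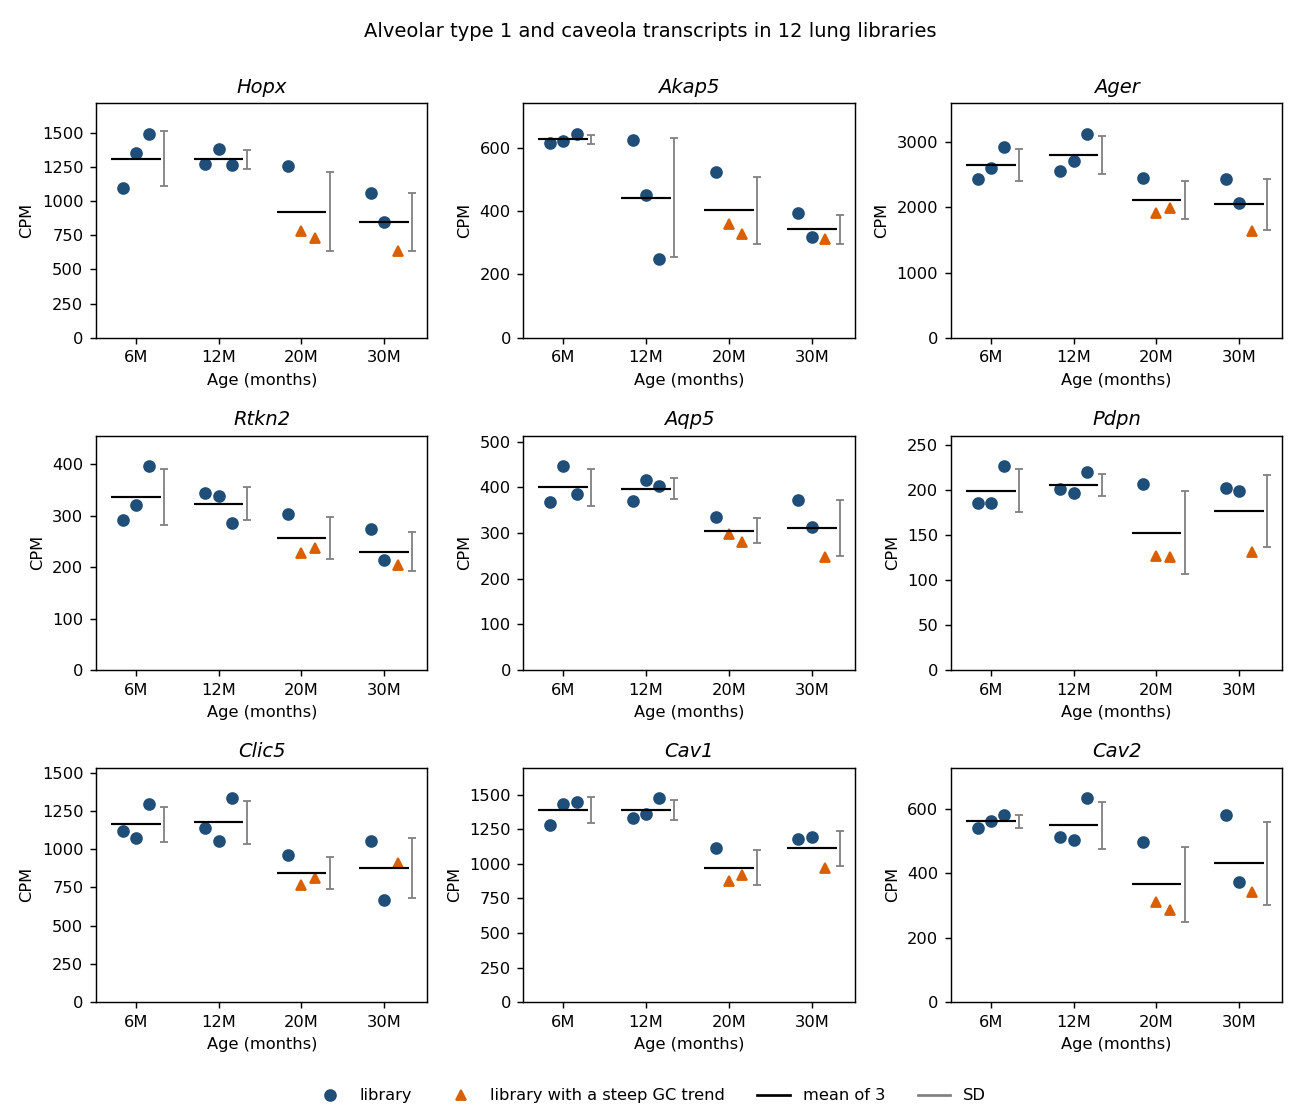
Level of each of the 9 genes (CPM, linear axis from 0) in every library by age in months. Points are libraries, orange triangles the 3 libraries with a steep GC trend, black lines the mean of 3 and grey bars the SD. At 20M the 2 triangles lie below the other library in every panel, and at 30M library 30M_220 is the lowest in every panel but that of Clic5.

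The scaffold gene Akap5 showed the largest difference. It encodes an A-kinase anchoring protein, which tethers protein kinase A and other enzymes at the membrane (ENSMUSG00000021057, chromosome 12, 76324891 to 76334153, GRCm38). Its level was 616, 622 and 644 CPM at 6M, then 625, 451 and 250 CPM at 12M. It was 522, 359 and 327 CPM at 20M and 395, 319 and 313 CPM at 30M. The 6M libraries lay close together, every 20M and 30M library was below them, and the lowest value of all was in the 12M library 12M_208. At 30M against 6M the log2 fold change was -0.87 (SE 0.27, 95% interval -1.46 to -0.28), with an edgeR adjusted p of 0.163. Akap5 crossed the threshold without 12M_208 (adjusted p = 0.0412), with DESeq2 (0.0427), with limma voom (0.0378) and when only the 6M and 30M libraries were fitted (0.0243). Over all 20 alternatives its adjusted p ran from 0.0243 to 0.435 and its log2 fold change from -0.99 to -0.74. Without 12M_208 the slope of Akap5 on age passed as well (-0.0375 log2 per month, adjusted p = 0.0150, against -0.0335 and 0.117 with all libraries).

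Hopx, a small homeodomain protein that binds no DNA and acts on transcription through partners, is used as a marker of type 1 cells (ENSMUSG00000059325, chromosome 5, 77086988 to 77115121). The 6M libraries held 1094, 1349 and 1491 CPM and the 12M libraries 1271, 1381 and 1260 CPM. At 20M the values were 1253, 783 and 731 CPM, and at 30M 1056, 845 and 633 CPM. The first 20M library, 20M_213, was within the 6M range, while the other 20M libraries, both with the GC trend, were lower than any at 6M. All 30M libraries lay below all 6M and 12M libraries. Hopx had a log2 fold change of -0.63 at 30M against 6M (SE 0.23, 95% interval -1.14 to -0.13, edgeR adjusted p = 0.267), and -0.46 without the 3 GC libraries (adjusted p = 0.316).

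Hopx overlaps an antisense gene, Hopxos. The ratio of Hopxos to Hopx CPM was 0.392 ± 0.0205 at 6M, 0.373 ± 0.0208 at 12M, 0.455 ± 0.0554 at 20M and 0.416 ± 0.0495 at 30M, each over 3 libraries. It was highest in the libraries with the GC trend, at 0.471 in 20M_221, 0.502 in 20M_222 and 0.472 in 30M_220. In all other libraries it lay between 0.352 and 0.415. The cause was not tested. Hopxos was at 511 ± 56.0 CPM at 6M, 486 ± 9.58 at 12M, 409.5 ± 72.9 at 20M and 346 ± 65.2 at 30M (log2 fold change at 30M against 6M -0.56, SE 0.17, edgeR adjusted p = 0.148). The strand setting of the counting is unknown here. Without strand, reads from exon sequence that Hopx and Hopxos share cannot be told apart.

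Rtkn2 is used as a marker of type 1 cells (ENSMUSG00000037846, chromosome 10, 67979570 to 68059740). It was at 293, 321 and 397 CPM at 6M and 345, 338 and 287 CPM at 12M. At 20M it was at 303, 227 and 238 CPM, and at 30M at 274, 214 and 205 CPM. The 30M libraries were below every 6M library, and the highest of them, 30M_216, was close to the lowest at 6M. Rtkn2 had a log2 fold change of -0.55 at 30M against 6M (SE 0.17, 95% interval -0.92 to -0.17, edgeR adjusted p = 0.170). The slope of Rtkn2 over the 4 ages was -0.0247 log2 per month (adjusted p = 0.0616), the smallest adjusted p of any member in any comparison. Without 30M_216 that slope was -0.0306 with an adjusted p of 0.0357, and DESeq2 gave 0.00963. Over the alternatives on the same scale it ran from 0.00963 to 0.217, and without the 3 GC libraries the slope was -0.0193 (0.191).

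A predicted antisense gene inside Rtkn2, Gm16212, was looked at only after its values were seen. Its slope passed (-0.0269 log2 per month, edgeR adjusted p = 0.0396), with 30.4 ± 3.37 CPM at 6M and 20.1 ± 3.63 at 30M. That call was lost without any 1 of 6M_201, 6M_203, 12M_206, 12M_207, 30M_218 or 30M_220 (adjusted p up to 0.142), with limma voom (0.0531), with no filter on low counts (0.0503), with the GC trend removed (0.0722), with a term for the 3 GC libraries (0.0757), without them (0.107) and on log2 of months (0.0879). Without strand, reads from any exon sequence that Rtkn2 and Gm16212 share cannot be told apart. How far their exons overlap was not examined.

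Ager encodes the receptor for advanced glycation end products, a membrane protein of the immunoglobulin superfamily that lung makes at far higher levels than other organs (ENSMUSG00000015452, chromosome 17, 34597862 to 34600936). It stood at 2442, 2597 and 2919 CPM at 6M and 2556, 2717 and 3125 CPM at 12M. It was at 2448, 1909 and 1988 CPM at 20M and 2429, 2062 and 1645 CPM at 30M. The highest 30M library, 30M_216, was only just below the lowest at 6M, so the groups did not overlap by a narrow margin. Ager had a log2 fold change of -0.37 at 30M against 6M (SE 0.19, 95% interval -0.78 to 0.03, edgeR adjusted p = 0.483), and -0.24 without 30M_220.

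Pdpn encodes podoplanin, a mucin-like glycoprotein of the type 1 cell surface (ENSMUSG00000028583, chromosome 4, 143267431 to 143299564). It had the smallest difference of the 9 at 30M against 6M. The 6M libraries were at 185 to 227 CPM and the 30M libraries at 201.9, 199 and 131 CPM, so that only 30M_220 lay outside the 6M range. Its log2 fold change at 30M against 6M was -0.17 (95% interval -0.63 to 0.29, edgeR adjusted p = 0.869), and it was -0.07 without 6M_203, -0.28 without 30M_216, -0.26 without 30M_218 and 0.01 without 30M_220. At 20M, Pdpn was at 206.2 CPM in 20M_213 and at 127 and 125 CPM in the libraries with the GC trend.

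Aqp5 is the water channel of the apical membrane of type 1 cells (ENSMUSG00000044217, chromosome 15, 99590782 to 99594829). It was at 368 to 447 CPM at 6M, 371 to 417 at 12M, 281 to 336 at 20M and 248 to 372 at 30M. Its 20M libraries did not overlap the 6M libraries, whereas 30M_216 lay within the 6M range. Aqp5 had a log2 fold change of -0.39 at 20M (edgeR adjusted p = 0.638) and -0.36 at 30M (adjusted p = 0.406), both against 6M. The 30M value was -0.22 without 30M_220, and the 20M value -0.17 with a term for the 3 GC libraries. Clic5, of the chloride intracellular channel family and linked to the actin cortex through ezrin (ENSMUSG00000023959, chromosome 17, 44134768 to 44280172), was at 1119, 1074 and 1295 CPM at 6M. It was at 1055, 669 and 908 CPM at 30M, and here 30M_218, which has no steep GC trend, was the lowest library of all 12. Its log2 fold change at 30M against 6M was -0.41 (SE 0.19, 95% interval -0.81 to -0.00257, edgeR adjusted p = 0.427), and -0.25 without 30M_218.

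The caveolin genes Cav1 and Cav2 lie side by side on chromosome 6 with 17219 bases between them. Caveolin 1 forms the caveolar coat, and caveolin 2 joins it in hetero-oligomers. Cav1 (ENSMUSG00000007655, 17306335 to 17341452) was at 1280, 1434 and 1451 CPM at 6M and 1335, 1361 and 1476 CPM at 12M. It was at 1118, 877 and 922 CPM at 20M and 1182, 1192 and 969 CPM at 30M. Every library at 20M and 30M was below every library at 6M and 12M. Cav1 had a log2 fold change of -0.51 at 20M (SE 0.16, 95% interval -0.85 to -0.18, edgeR adjusted p = 0.638) and -0.32 at 30M (SE 0.16, adjusted p = 0.473), both against 6M.

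Cav2 (ENSMUSG00000000058, 17281185 to 17289115) was at 542, 561 and 580 CPM at 6M and 513, 502 and 633 CPM at 12M. It was at 498, 312 and 286 CPM at 20M and 580, 373 and 343 CPM at 30M. The 30M libraries spread widely, 30M_216 being at the level of the highest 6M library. Cav2 had a log2 fold change of -0.62 at 20M (95% interval -1.12 to -0.11, edgeR adjusted p = 0.638) and -0.38 at 30M (95% interval -0.88 to 0.13, adjusted p = 0.621), against 6M. The 30M value was -0.65 without 30M_216 and -0.24 without 30M_220, and the 20M value -0.94 without 20M_213. Cav1 CPM divided by Cav2 CPM averaged 2.47 at 6M (SD 0.101) and 2.69 at 30M (SD 0.590) over 3 libraries each, a difference within the spread at 30M.

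**Figure D2:**
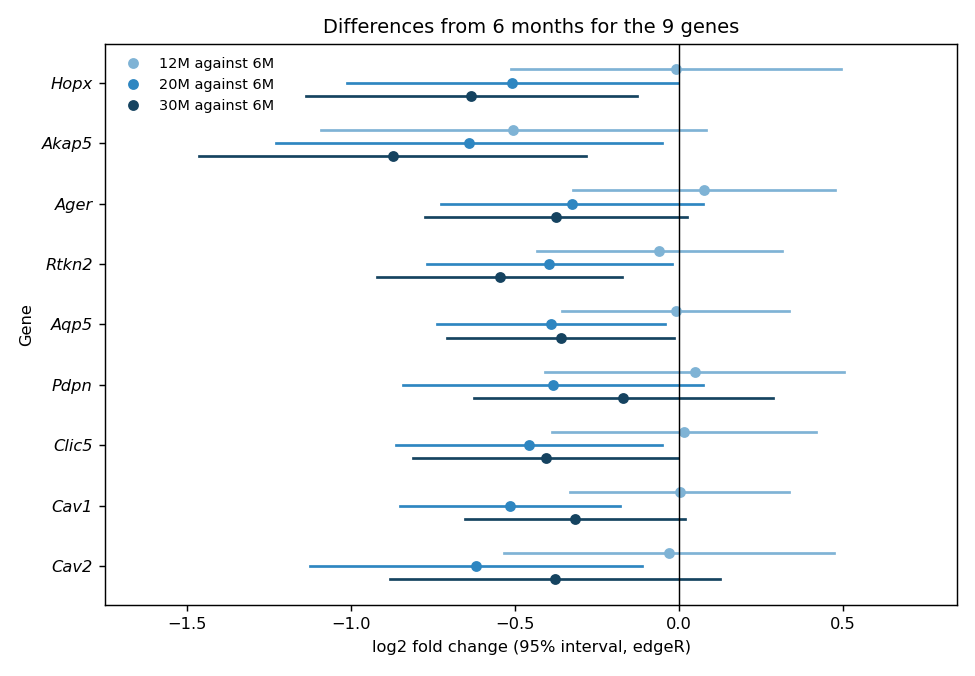
log2 fold change of each gene at 12M, 20M and 30M against 6M, with 95% intervals from edgeR. The 12M estimates lie near 0 except that of Akap5 at -0.51, and the 20M and 30M estimates are all below 0.

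At 12M the mean of 8 of the 9 genes lay within 1 SD of its 6M mean, Akap5 being the exception. Of the 9 log2 fold changes against 6M, 5 lay below 0, with a median of -0.01 (47.1% of tested genes lay below 0). By edgeR 0 of 9 were called, as were 0% of tested genes. At an unadjusted p under 0.05 there were 0 (1.65% of tested genes were lower by that measure), and in 0 of 9 did the groups separate (5.81% of tested genes, lower). DESeq2 and limma voom called 0 as well. The intervals leave room for changes of either sign: that of Ager ran from -0.32 to 0.48 and that of Clic5 from -0.39 to 0.42. Akap5 was at 442 ± 188 CPM at 12M against 627 ± 14.5 at 6M (log2 fold change -0.51, 95% interval -1.09 to 0.08), and 12M_208 was at 250 CPM. That difference was -0.23 without 12M_208 and -0.84 without 12M_206.

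At 20M all 9 log2 fold changes against 6M lay below 0 (45.4% of tested genes did), from -0.64 (Akap5) to -0.33 (Ager), with a median of -0.46. edgeR called 0 of 9, while 0.0163% of tested genes were called and 0% were called and lower. At an unadjusted p under 0.05 there were 7 of 9 (all but Ager and Pdpn), all lower, against 2.87% of tested genes. In 5 of 9 (Akap5, Aqp5, Cav1, Cav2 and Clic5) the groups did not overlap, as in 7.58% of tested genes in that direction. DESeq2 called Cav1 (adjusted p = 0.0480), and limma voom with quality weights called Akap5, Cav1, Cav2, Hopx and Pdpn. Of all genes tested, DESeq2 called 0.305% (0.0327% as lower) and limma voom 4.22% (2.31% as lower). Without 20M_213 the difference was -0.82 for Hopx and -0.69 for Pdpn, and without 6M_203 it was -0.26 for Rtkn2. Without 20M_221, 20M_222 and 30M_220, a single 20M library was left, assumed to vary like the other ages. The 20M differences were then -0.32 for Cav1, -0.28 for Clic5, -0.27 for Akap5, -0.26 for Aqp5, -0.18 for Cav2, -0.16 for Rtkn2, -0.12 for Ager, -0.07 for Hopx and 0.04 for Pdpn, with 0 called. With each library's GC trend removed instead, the 20M differences were -0.58 for Aqp5, -0.55 for Akap5, -0.50 for Ager and -0.46 for Hopx. They were -0.45 for Cav1 and Cav2, -0.40 for Clic5, -0.39 for Pdpn and -0.35 for Rtkn2.

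Between 20M and 30M the signs were mixed. At 30M against 20M, 4 of 9 log2 fold changes lay below 0 (52.2% of tested genes), from -0.23 (Akap5) to 0.24 (Cav2). By edgeR 0 of 9 were called (0.212% of tested genes), as by DESeq2 and limma voom. At an unadjusted p under 0.05 there were 0 members (3.75% of tested genes were lower), and 0 had groups that did not overlap (5.16%, lower). Against 12M, all 9 lay below 0 at 20M (median -0.43; 47.5% of tested genes) and at 30M (median -0.37; 49.7%), with 0 called by edgeR, DESeq2 or limma voom. By edgeR 0% of tested genes were called at 20M and 0.712% at 30M, or 0.0543% as lower. In each of these comparisons 5 members were lower at an unadjusted p under 0.05, against 4.5% of tested genes at 20M and 3.8% at 30M. Groups did not overlap in 6 members at 20M (7.42% of tested genes) and in 4 at 30M (5.74%). Without the 3 GC libraries the median was -0.14 at 20M against 12M, with values from -0.32 to 0.24, and -0.30 at 30M against 12M, all 9 below 0. These comparisons share libraries with those against 6M and are not independent of them. The slope over all ages lay below 0 for all 9 (48.7% of tested genes), between -0.0335 and -0.0109 log2 per month. By the slope edgeR called 0 of 9 (2.68% of tested genes, 0.179% as lower), with 7 lower at an unadjusted p under 0.05 (4.63% of tested genes). DESeq2 called 3 as lower (Akap5, Hopx and Rtkn2), with 4.91% of its tested genes called and 0.95% as lower. limma voom called 1 as lower (Akap5), with 3.18% called and 0.424% as lower. Without the 3 GC libraries the slopes ran from -0.0291 (Akap5) to 0.000116 (Pdpn), with 0 called. The joint test of any difference among ages called 0 of 9 in edgeR (1.11% of tested genes), with 6 members at an unadjusted p under 0.05 (11.2%). It called 1 in DESeq2 (4.29% of tested genes) and 6 in limma voom (9.01%).

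The libraries of 1 age differed among themselves. Taking each member's level as a percentage of its 6M mean, the median of the 9 was 88.8% in 20M_213 against 63.6% in 20M_221 and 66.4% in 20M_222. It was 90.7% in 30M_216 against 66.5% in 30M_218 and 62.0% in 30M_220. So 4 of the 6 libraries of the older ages had the low medians, and 3 of those 4 are the libraries with a steep GC trend. The fourth, 30M_218, had a Spearman correlation with GC of 0.0388. Single genes departed from this. Akap5 was at 63.0% in 30M_216 and at 39.8% in 12M_208, while in 30M_218 Pdpn was at 99.7% and Cav1 at 85.8%. The cause of the low medians was not tested. Of the 9 genes, 7 had a GC content below the median of tested genes (50.1%), Cav2 lowest at 41.1%, while Ager at 59.3% and Aqp5 at 60.6% were far above it. With the GC trend of each library removed, the 30M differences were -0.81 for Akap5, -0.59 for Hopx, -0.51 for Rtkn2 and -0.44 for Ager. They were -0.41 for Aqp5, -0.36 for Clic5, -0.27 for Cav1 and Cav2 and -0.17 for Pdpn, with 0 of 9 called. Without the 3 GC libraries the 30M differences were -0.81 for Akap5, -0.47 for Rtkn2, -0.46 for Hopx, -0.43 for Clic5, -0.24 for Ager and Cav2, -0.23 for Cav1, -0.22 for Aqp5 and 0.01 for Pdpn, again with 0 called.

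**Figure D3:**
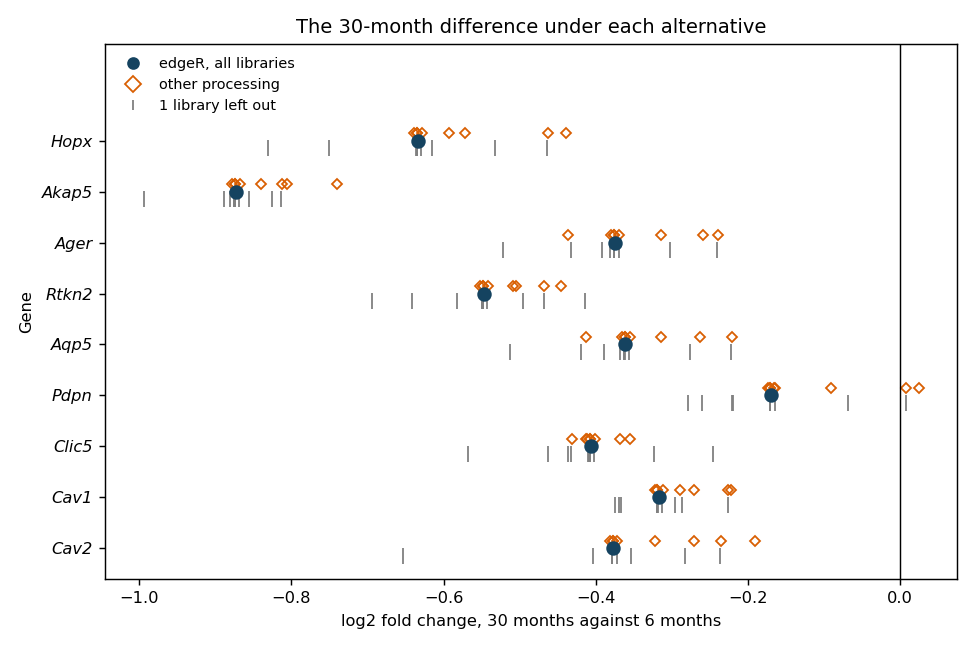
log2 fold change at 30M against 6M for each gene with all libraries in edgeR (filled circles), under other processing (open diamonds) and with 1 library left out (grey ticks). For 8 genes every value is below 0, and for Pdpn the values run from -0.28 to 0.02.

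The members tended to be high or low in the same libraries. Over the 12 libraries, Pearson's r of log2 CPM between members ran from 0.38 to 0.94 over 36 pairs, with a median of 0.81. The closest pairs were Hopx with Rtkn2 and Hopx with Ager, both at 0.94. Akap5 stood apart, with a mean r of 0.49 with the other 8, the lowest of any member. With each age's mean removed the median r was 0.67 over the same pairs. Without the 3 GC libraries, an alternative chosen after seeing the data, the median r was 0.61 over 9 libraries, from -0.31 to 0.94. All points share the libraries, with their depth and base composition.

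**Figure D4:**
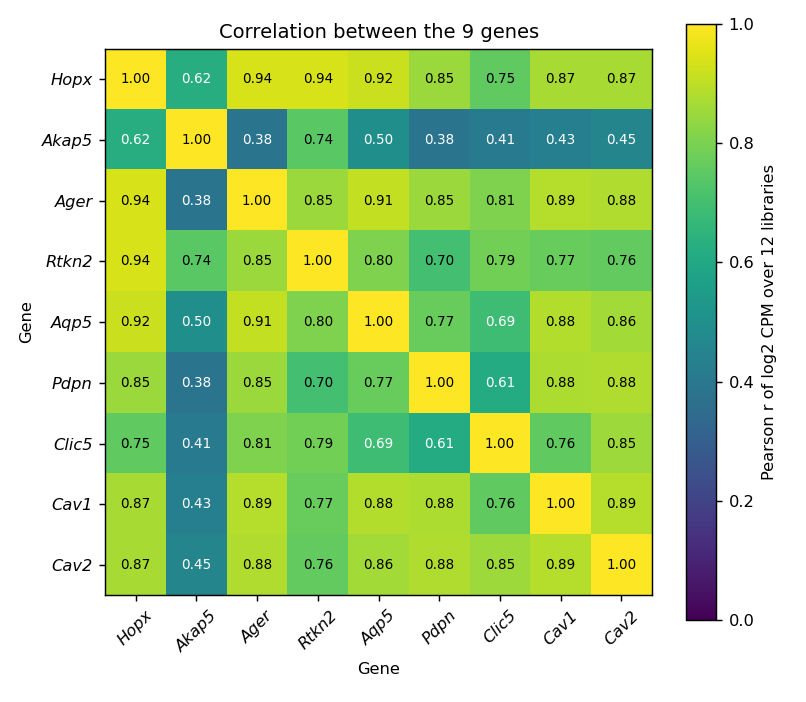
Pearson's r of log2 CPM over the 12 libraries for each pair of the 9 genes. The row of Akap5 has the lowest values, down to 0.38 with Ager, and the highest values are those of Hopx with Rtkn2 and with Ager, at 0.94.

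The genes whose levels were most like those of Ager over the 12 libraries, among 13348 others with a mean of at least 5 CPM, were AU021092 (r = 0.98), Zdhhc3 (0.98), Retreg1 (0.98), Hipk3 (0.98) and Bag1 (0.98). Of the members, Hopx came first at rank 29 (0.94) and Akap5 last at rank 3916. For Cav1 the nearest genes were Paics (0.96), Setd3 (0.95), Cdadc1 (0.94), Eif4e (0.94) and Cadm1 (0.94), and the nearest member was Cav2 at rank 113 (0.89).

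Other genes of the type 1 cell had mostly lower means at 30M than at 6M. Of 18 further type 1 markers, 0 were called at 30M against 6M by edgeR (1.96% of tested genes). Of their log2 fold changes 17 lay below 0 (49.5% of tested genes), with a median of -0.44. At an unadjusted p under 0.05, 10 were lower (3.57% of tested genes). By the slope, 1 of 18 was called and lower, against 0.179% of tested genes. It was the guidance molecule Sema3a, from 72.0 ± 10.3 CPM at 6M to 42.1 ± 10.1 at 30M (-0.0338 log2 per month, edgeR adjusted p = 0.0256). That call was lost without 6M_201, 6M_203, 30M_218 or 30M_220 (edgeR adjusted p up to 0.0979) and without the 3 GC libraries (0.0897). The tetraspan gene Emp2 was at 1325 ± 79.6 and 925 ± 205.6 CPM at 6M and 30M (edgeR adjusted p = 0.222), the laminin chain Lama3 at 136 ± 17.8 and 90.6 ± 27.6 (0.194), and Sema3e at 186 ± 18.8 and 124 ± 33.4 (0.161).

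Of 7 regulators of the type 1 state, 0 were called at 30M against 6M (1.96% of tested genes). All 7 log2 fold changes lay below 0 (49.5% of tested genes), with a median of -0.30. By the slope 1 of 7 was called and lower, against 0.179% of tested genes. It was Tead1, a DNA-binding partner of the Hippo pathway proteins YAP and TAZ. Tead1 went from 247 ± 27.0 CPM at 6M to 167 ± 22.6 at 30M (-0.0238 log2 per month, edgeR adjusted p = 0.0431). The call was lost without any 1 of 9 libraries: each 6M library, 12M_206, 12M_207, 20M_213, 20M_221, 30M_218 and 30M_220 (adjusted p up to 0.164). It was also lost without the 3 GC libraries (0.140), with a term for them (0.0564), with no filter on low counts (0.0687) and on log2 of months (0.0634). The lung lineage factor Nkx2-1 was at 280 ± 24.7 and 220 ± 34.8 CPM at 6M and 30M (adjusted p = 0.480) and Klf5 at 63.5 ± 2.88 and 46.0 ± 9.91 (0.227).

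The other genes that build caveolae had log2 fold changes of both signs. Of 10 coat and neck genes, 0 were called at 30M against 6M, 6 log2 fold changes lay below 0 (49.5% of tested genes), and the median was -0.06. Cavin1, which stabilises the coat, averaged 661 ± 44.3 CPM at 6M and 684 ± 89.9 CPM at 30M (log2 fold change 0.05, SE 0.17, edgeR adjusted p = 0.959). Cavin2 was at 828 ± 52.8 and 697 ± 114 CPM (-0.25, adjusted p = 0.669). The ATPase Ehd2, which holds the caveolar neck, was at 446 ± 0.735 and 384 ± 54.9 CPM, and its relative Ehd4 at 389 ± 44.96 and 504 ± 105 (adjusted p = 0.721 and 0.622). The muscle forms Cav3 and Cavin4 were at 2.17 ± 0.977 and 1.01 ± 0.196 CPM at 6M, and Cavin4 reached 7.53 CPM in 20M_222, the library with muscle transcripts. The differences between the caveolins and these genes were not tested.

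**Figure D5:**
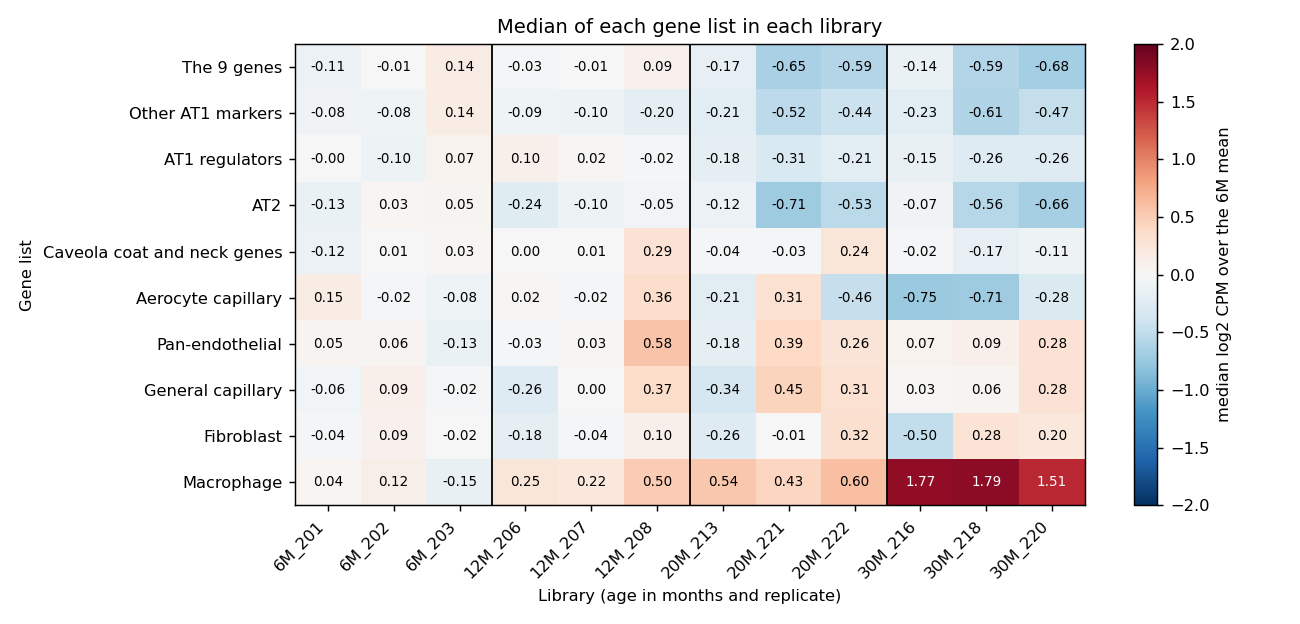
Median log2 CPM of each gene list relative to its 6M mean (colour and printed value) in each of the 12 libraries. The 9 genes, the other type 1 (AT1) markers and the type 2 (AT2) genes are lowest in 20M_221, 20M_222, 30M_218 and 30M_220, and macrophage genes are at 1.51 to 1.79 in the 30M libraries.

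Levels of other cell types' genes are given beside these results, and their part in them was not tested. For alveolar type 2 cells, 0 of 11 genes were called at 30M against 6M, all 11 log2 fold changes lay below 0 (49.5% of tested genes), and the median was -0.37. At an unadjusted p under 0.05, 3 of the 11 were lower at 30M (3.57% of tested genes) and 5 at 20M (2.87%), against 6M. The median of the 11 at 20M against 6M was -0.45. Type 2 genes summed to 33930 to 39348 CPM at 6M and 20703 to 35425 at 30M. The 7 genes of the transitional state between type 2 and type 1 cells had a median of -0.13 at 30M against 6M, with 0 called. Their log2 fold changes ran from -1.21 to 0.53. At an unadjusted p under 0.05, 1 was higher and 1 was lower (3.57% of tested genes were lower). The 10 genes common to endothelium, which also makes Cav1 and Cav2, had 0 called and a median of 0.17. They summed to 3438 to 4071 CPM at 6M and 3936 to 5261 at 30M. The highest 30M sum was in 30M_220, a library with the GC trend. The sums in 30M_216 and 30M_218, 3936 and 3995 CPM, lay within the 6M range. The general capillary genes had a median of 0.09, with 0 of 5 called. They summed to 1308 to 1401 CPM at 6M, and to 1435, 1259 and 2056 CPM in 30M_216, 30M_218 and 30M_220.

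The 7 genes of aerocytes, the capillary cells that lie against type 1 cells, had a median of -0.52 at 30M against 6M. Of these 1 was called and lower, against 0.0272% of tested genes. It was Fibin, from 69.6 ± 7.89 to 31.2 ± 5.21 CPM (log2 fold change -1.16, edgeR adjusted p = 0.0194). That call was lost without 6M_202, 6M_203 or 30M_218 (adjusted p up to 0.1098) and without the 3 GC libraries (0.0528). By the slope 2 of 7 were called and lower (0.179% of tested genes), Fibin (edgeR adjusted p = 0.00767) and Apln (0.0435). The call of Apln was lost without any 1 library other than 6M_203 and 20M_221 (adjusted p up to 0.153). The summed level of the 7 was 768 to 847 CPM at 6M and 509 to 712 at 30M. The 5 lymphatic genes, whose cells also make Pdpn, had a median of 0.06 with 0 called, and the 7 fibroblast genes a median of 0.01 with 0 called. Of 7 macrophage genes, 5 were called as higher and 0 as lower, where 1.96% of tested genes were called. The 7 had a median of 1.65 and a summed level of 155 to 185 CPM at 6M and 400 to 524 at 30M. The 7 genes of pulmonary vein cardiac muscle, a tissue that also makes Hopx, had a median of -0.07, with 317 to 1587 CPM in sum over the 30M libraries and 0 called. Airway secretory genes had a median of -0.30, with 0 of 6 called. By the slope 1 of these 6 was called and lower (0.179% of tested genes): Scgb3a1 (edgeR adjusted p = 0.0369).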

How the data were processed

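Whole-lung RNA from 12 libraries, 3 at each of 4 ages, was measured. Per the labels' protocols RNA was extracted with ISOGEN II, poly-A selected and sequenced in pairs on an Illumina platform. The submitters' processing notes list HISAT2 2.1.0, featureCounts, Trimmomatic 0.38 and FastQC 0.11.7 and the build GRCm38 (mm10). They name no annotation release or strand setting. The deposited table holds whole-number counts per gene that the authors did not normalize.

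Groups were taken from the titles. Counts were tested in R 4.3.3 with edgeR 4.0.16 (robust quasi-likelihood fit, TMM, filterByExpr by age, all 12 libraries in 1 fit) and Benjamini-Hochberg adjustment over 18407 genes, a gene being called at an adjusted p under 0.05. SE is the log2 fold change divided by the square root of F. Exon length and transcript GC came from GENCODE M21, in which 99.4% of shared genes have the table's start and end. Log2 CPM used a prior count of 2. Every member is named, as are up to 4 genes per companion list by smallest p and a few others for their role. Members and lists were chosen with earlier results of these data known. Alternatives were DESeq2 1.42.0, limma voom (limma 3.58.1), DESeq2 size factors, no filter, only the 2 ages compared, log2 of months, 3 treatments of the GC libraries (trend removed, a term for them, without them) and each library left out. The correlation between members without the GC libraries was added after seeing the data.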

Additional observations from a re-analysis of the deposited data

How the results depend on the processing

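With all libraries edgeR called 0 members in each comparison. At 30M against 6M, 1 member (Akap5) was called with DESeq2 (4.1% of all tested genes) and with limma voom (3.23%). Akap5 was also called with only the 2 ages fitted, where 357 of 17548 tested genes were called, 14 as lower. At 20M against 6M the count was 1 with DESeq2 (0.305%) and 5 with limma voom (4.22%). It was 1 and 6 for the joint test (4.29% and 9.01%), and 3 and 1 for the slope (4.91% and 3.18%). Leaving out 1 library gave 0 to 1 at 30M against 6M and for the slope, and 0 in the other comparisons. At 30M it was Akap5 without 12M_208, where 415 of 18851 tested genes were called, 21 as lower. For the slope it was Akap5 without 12M_208 (558 of 18851 genes, 64 as lower) and Rtkn2 without 30M_216 (463 of 18830, 105 as lower). Pdpn changed sign: at 30M against 6M the log2 fold change of Pdpn came to 0.0242 when the 3 GC libraries had a term of their own and 0.00770 without them, at 20M against 6M to 0.0181 and 0.0417, and as a slope to 0.000547 and 0.000116. With 1 library left out, Pdpn at 30M ran from -0.279 to 0.00733. Near 0, at 12M against 6M, signs also turned for Hopx (0.00702) and Clic5 (-0.0609) with limma voom and for Cav2 (0.0729) with the GC trend removed. Cav1 there was -0.00350 with DESeq2, -0.0380 with limma voom, -0.00351 with DESeq2 size factors, -0.00681 with 2 ages and -0.00442 without the GC libraries. With 1 library left out, the 12M values ran from -0.122 to 0.0956 (Hopx), -0.0127 to 0.153 (Ager), -0.150 to 0.0763 (Rtkn2), -0.0659 to 0.0775 (Aqp5), -0.00574 to 0.152 (Pdpn), -0.0894 to 0.101 (Clic5), -0.0520 to 0.0364 (Cav1) and -0.149 to 0.0319 (Cav2). The cause of these was not tested. No paired analysis was possible because the ages share no replicate numbers. With 3 libraries per age, a missed threshold does not show that a gene did not change.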
